A study of Bostrychia moritziana with 3 samples.

Results

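A set of 89 transcripts of the red alga Bostrychia moritziana was abundant in female gametophytes and tetrasporophytes, and low but still detected in male gametophytes. The members were chosen by their levels, given as RPKM (mapped reads per kilobase of transcript, scaled to the library's read total). Each had at least 10 RPKM in the female and in the tetrasporophyte, these 2 less than 4-fold apart, each at least 4 times the male value, and a male value above 0.3 RPKM. They were found among 28609 transcripts listed for all 3 libraries, of 36534 listed for any. The levels in all 3 libraries chose the members, so their differences are given here as a description, with no test.

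The libraries came from strain 2746, grown as unialgal cultures at 20 °C with 16 h of light and 8 h of dark. Male gametophytes were harvested while making clusters of spermatangia, the organs that release the male gametes. Female gametophytes were harvested while making carpogonial branches, which bear the egg cell. Tetrasporophytes, grown from released carpospores, were harvested with mature sporangia. There was 1 library per stage, so the spread between cultures is unknown and no p-value can be given. How many plants went into a library is not given in the sources used here.

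In red algae with this life history, free-living male and female gametophytes are haploid and the free-living tetrasporophyte is diploid. The tetrasporophyte makes spores by meiosis, and these grow into the male and female gametophytes of the next generation. The RNA is that of bulk material, so fewer cells of a type and less RNA per cell cannot be told apart. Transcripts carry assembly numbers (ISGT and a number) only. Gene names, sequences and functions are not paired with them in the files, so no function, pathway or cell type can be given to any member and no sequence is shown.

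The number of reads per library is not given. In the low values, the most common steps between libraries stood at a log2 ratio of 0.16 for male to female and -0.04 for male to tetrasporophyte. Taken as steps of equal reads, they put the read total at 1.12 times that of the male for the female library, and at 0.973 times for the tetrasporophyte library. No interval for counting error can be given without transcript lengths and read totals. Values were rounded to 2 decimals, which at the lowest male value among the members, 0.31 RPKM, is an uncertainty of up to 1.61%.

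The median rank of the members by abundance was 1414 in the female, 2142 in the tetrasporophyte and 14982 in the male. The rule sets the direction of this difference. The members' levels ran from 0.31 to 76.41 RPKM in the male, with a median of 2.72 RPKM. In the female they ran from 10.88 to 587 RPKM, with a median of 61.68 RPKM. In the tetrasporophyte they ran from 11.84 to 986 RPKM, with a median of 44.69 RPKM. The set thus spanned over 2 orders of magnitude in the male and somewhat less in each other library. Together the members made up 0.154% of all RPKM in the male, against 2.16% in the female and 2.40% in the tetrasporophyte. No member was among the 1000 most abundant transcripts of the male, where the best placed stood at rank 1081. Of the 89, 36 were among the 1000 most abundant of the female and 31 among those of the tetrasporophyte, including 4 and 10 among the 100 most abundant.

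**Figure D1:**
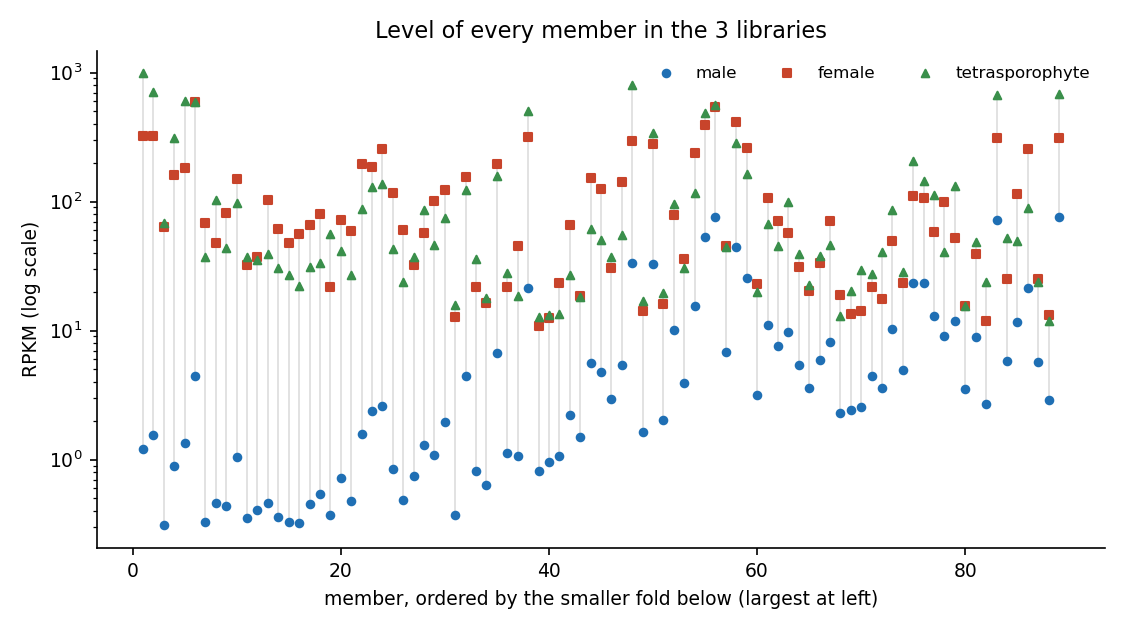
RPKM (log scale) of each of the 89 members in the male (circles), female (squares) and tetrasporophyte (triangles), 1 library each, ordered along the horizontal axis by the smaller of the folds below female and tetrasporophyte. The male values, between 0.31 and 76.41 RPKM, tend to rise toward the right. The female and tetrasporophyte values lie between 10.88 and 986 RPKM, and the limit of 0.3 RPKM in the male keeps the lowest of them from the far left.

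The members were read against the 7434 transcripts that met the same conditions on the female and the tetrasporophyte, whatever their male value. Of these 7434, the 89 members were 1.20%. A further 38 (0.511%) were at least 4-fold below both in the male but at or below 0.3 RPKM there, 2 of them at 0. In the other direction, 94 (1.26%) exceeded both by at least 4-fold in the male. Most of the 7434 differed little: their median log2 ratio was -0.13 for male to female and -0.10 for male to tetrasporophyte. For the members the medians were -3.75 for male to female and -3.60 for male to tetrasporophyte. With the 38 counted in, 127 transcripts were lower in the male and 94 higher. These counts depend on the scaling, with 163 lower and 85 higher under median-of-ratios scaling and 146 lower and 84 higher with equal sums. The members lie far from the centre by the way they were chosen.

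**Figure D2:**
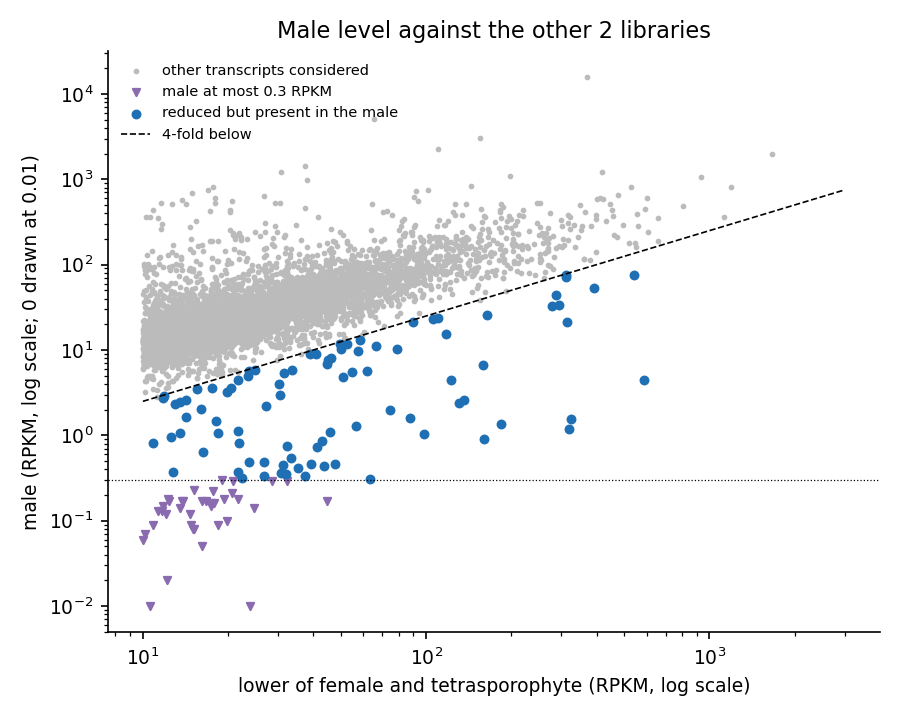
Male level against the lower of the female and tetrasporophyte levels (RPKM, both axes log) for the 7434 transcripts considered. The dashed line marks 4-fold below and the dotted line 0.3 RPKM in the male; the 89 members lie between these lines and the 38 transcripts at or below 0.3 RPKM under the dotted one.

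How far the male fell below the others varied widely, and the members did not crowd at the 4-fold limit alone. Measured by the smaller of the folds below the female and below the tetrasporophyte, the median was 10.5-fold and the range 4.06-fold to 267-fold. Between 4-fold and 8-fold there were 39 members, between 8-fold and 16-fold 13, and between 16-fold and 32-fold 6. The numbers were larger again above that, with 14 members between 32-fold and 64-fold and 11 between 64-fold and 128-fold. At 128-fold or more there were 6. The male value was a median of 9.50% of the lower of the other values, and at its smallest 0.375%. The 31 members at least 32-fold below had medians of 0.54 RPKM in male, 71.67 RPKM in female and 43.68 RPKM in tetrasporophyte thalli. The other 58 had medians of 5.68 RPKM in male, 47.46 RPKM in female and 44.89 RPKM in tetrasporophyte thalli. The limit of 0.3 RPKM in the male keeps strongly reduced transcripts with low female and tetrasporophyte values out of the set. The 38 left out had medians of 0.15 RPKM in male, 25.2 RPKM in female and 17.0 RPKM in tetrasporophyte thalli. With them counted in, 69 transcripts were at least 32-fold below, 54 at least 64-fold and 19 at least 128-fold. The limit thus shapes the upper classes given above.

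The member furthest below both was ISGT_41943. It stood at 1.20 RPKM in male, 320 RPKM in female and 986 RPKM in tetrasporophyte thalli, where it was the 18th most abundant of all. Its log2 ratio was -8.06 for male to female and -9.68 for male to tetrasporophyte. Next came ISGT_42048, with 1.54 RPKM in male, 325 RPKM in female and 707 RPKM in tetrasporophyte thalli. Its log2 ratios were -7.72 for male to female and -8.84 for male to tetrasporophyte. For this pair the tetrasporophyte held the highest value.

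The most abundant members, ranked by the lower of the female and tetrasporophyte values, differed in how much remained in the male. ISGT_4512 stood at 4.42 RPKM in male, 587 RPKM in female and 593 RPKM in tetrasporophyte thalli, 133-fold below the female. ISGT_4356 stood at 75.66 RPKM in male, 541 RPKM in female and 562 RPKM in tetrasporophyte thalli, 7.15-fold below the female. Nearly equal levels in the female and the tetrasporophyte thus went with male levels that lay far apart. The highest male value of any member was that of ISGT_4311, with 76.41 RPKM in male, 310.5 RPKM in female and 676 RPKM in tetrasporophyte thalli.

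The limits of the rule cut through a continuous range. ISGT_4311 was also the member nearest the 4-fold limit, at 4.06-fold. The nearest transcript outside it stood at 38.57 RPKM in male, 154 RPKM in female and 335 RPKM in tetrasporophyte thalli, which is just under the limit. There were 19 members between 4-fold and 5-fold and 63 transcripts outside, between 3-fold and 4-fold. At the lower limit in the male, ISGT_41930 was the member nearest to 0.3 RPKM, with 0.31 RPKM in male, 63.41 RPKM in female and 68.17 RPKM in tetrasporophyte thalli. The nearest transcript left out had 0.30 RPKM in male, 37.52 RPKM in female and 18.99 RPKM in tetrasporophyte thalli. Between 0.3 and 0.4 RPKM in the male there were 8 members, and 7 of the 38 transcripts left out had between 0.2 and 0.3 RPKM.

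The same rule was applied with each of the other libraries as the reduced one. At 4-fold the male set held 89 members (1.20% of 7434), against 189 (2.42% of 7824) reduced but present in the female and 109 (1.47% of 7402) reduced but present in the tetrasporophyte. The order depends on the scaling: with median-of-ratios scaling the male set held 118, the female set 138 and the tetrasporophyte set 109. At 32-fold, 31 transcripts remained for the male, 11 for the female and 9 for the tetrasporophyte. With those at or below 0.3 RPKM in the reduced library, the totals at 32-fold were 69 for the male, 52 for the female and 98 for the tetrasporophyte. The totals at 4-fold were then 127, 230 and 198 in the same order. The male count at 32-fold was thus above that of the tetrasporophyte only with the limit of 0.3 RPKM, and above that of the female either way. The 31, 11 and 9 above 0.3 RPKM were taken as shares of each set at 4-fold. These shares were 34.8% for the male, 5.82% for the female and 8.26% for the tetrasporophyte. The median of the smaller fold was 10.5 in the male set, 5.69 in the female set and 7.96 in the tetrasporophyte set. The lower limit of 0.3 RPKM caps the fold that can be seen. The median of the lower of the other values was 41.1 RPKM in the male set, 23.6 RPKM in the female set and 37.5 RPKM in the tetrasporophyte set, so larger folds could be seen in the male set than in the female set. The part of this level difference in the shares was not tested. The sets use the same 3 libraries and were not compared by a test.

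On the higher side the folds were smaller. Of the 94 transcripts that exceeded both others by 4-fold in the male, 34 were at least 8-fold higher, 5 at least 16-fold and 0 at least 32-fold higher. The members numbered 50 at 8-fold, 37 at 16-fold, 31 at 32-fold, 17 at 64-fold and 6 at 128-fold. The conditions on level bear on this, since a transcript counted as higher in the male must also have at least 10 RPKM in the female and the tetrasporophyte.

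**Figure D3:**
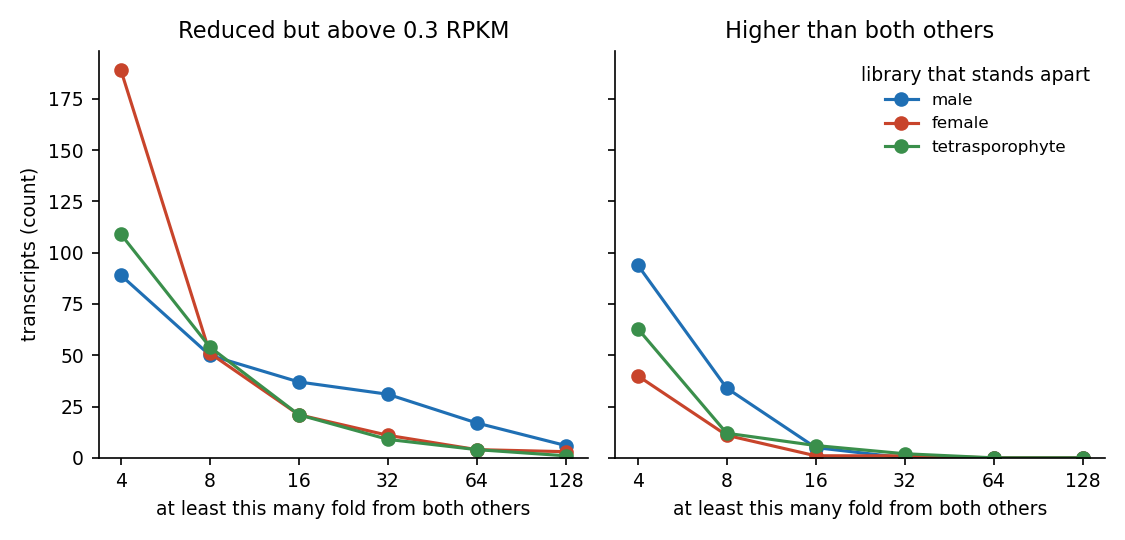
Number of transcripts at least 4-fold to 128-fold below (left, and above 0.3 RPKM) or above (right) both other libraries, for the male, the female and the tetrasporophyte as the library that stands apart. The male line starts lowest on the left, with 89 at 4-fold, and is highest from 16-fold on, with 37 at 16-fold and 31 at 32-fold.

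Members were more frequent among the more abundant transcripts. Grouped by the lower of the female and tetrasporophyte values, they were 30 of 5020 transcripts (0.598%) between 10 and 30 RPKM, 38 of 2046 (1.86%) between 30 and 100 RPKM, and 21 of 365 (5.75%) between 100 and 1000 RPKM. The lower limit in the male shapes the first of these shares, since 36 of the 38 transcripts at or below 0.3 RPKM in the male were in that class. With these counted in, the shares were 1.31%, 1.96% and 5.75%. Transcripts that exceeded both others in the male showed no such order, with 1.53%, 0.684% and 0.822% in the same classes. These classes are set by the female and tetrasporophyte values, which favours transcripts that are lower in the male. The transcripts were also grouped by the highest of the 3 values in place of this. Members were then 0.618% below 30 RPKM, 0.997% between 30 and 100 RPKM and 4.05% at 100 RPKM or more. With the 38 at or below 0.3 RPKM counted in, these shares were 1.17%, 1.60% and 4.05%. Transcripts higher in the male were 0%, 0.483% and 8.77%. The rule fixes this 0%, since a male value 4-fold above others of at least 10 RPKM cannot lie below 30 RPKM. It also closes part of the class from 30 to 100 RPKM to them.

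The female and the tetrasporophyte were not at the same level for all members, and which of them was higher differed between classes of male reduction. Over all 89 members the median log2 ratio of female to tetrasporophyte was -0.01, with 43 higher in the female and 46 (51.7%) higher in the tetrasporophyte. The same median over the 7434 transcripts considered was -0.01, with 50.3% higher in the tetrasporophyte. Under median-of-ratios scaling, which raises the log2 ratio of female to tetrasporophyte of every transcript by the same amount and its median over the 7434 to 0.20, 36 members (40.4%) were higher in the tetrasporophyte, as were 36.9% of the 7434. The members' centre thus lay near that of all transcripts, but their spread was wider: the middle 50% lay between -0.44 and 0.84 on the log2 scale, against -0.41 and 0.38 for the 7434.

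Among the 31 members at least 32-fold below, however, the median log2 ratio of female to tetrasporophyte was 0.71, against -0.16 among the other 58 members. In 18 of the 31 (58.1%) the female was above the tetrasporophyte by 0.5 to 1.5 on the log2 scale, as it was in 15 of the other 58 (25.9%) and in 17.7% of the 7434. These 18 ran from 0.32 to 2.60 RPKM in the male, with a median of 0.515 RPKM. In the female they ran from 47.92 to 254 RPKM with a median of 80.56 RPKM, and in the tetrasporophyte from 22.30 to 136 RPKM with a median of 40.13 RPKM. Their median ratio of female to tetrasporophyte was 2.06. The tetrasporophyte was above the female by the same margin in 5 of the 31 (16.1%), 15 of the other 58 (25.9%) and 19.3% of the 7434. The pattern did not extend to the most reduced members. At a split of 64-fold, 8 of 17 members (47.1%) lay in this range and the median was 0.08, and all 6 members at 128-fold or more were higher in the tetrasporophyte, by 0.01 to 1.72 on the log2 scale (4 of the 6 with median-of-ratios scaling). Between 32-fold and 128-fold, 19 of 25 members were higher in the female. A further 37 transcripts at least 64-fold below, 13 of them at least 128-fold, were left out by the limit of 0.3 RPKM in the male. Their ratios were not split by fold, so these classes describe members only. The split at 32-fold and the limits of 0.5 and 1.5 were chosen after these values were seen, and the pattern has no test.

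Transcripts at or below 0.3 RPKM in the male, which the rule leaves out, were counted with the same limits, chosen after the values were seen. Of these 38, 28 (73.7%, beside 49.6% of the 7434) had the female above the tetrasporophyte in the values as deposited. In 20 (52.6%, beside 17.7%) the female was above by 0.5 to 1.5 on the log2 scale. Median-of-ratios scaling raises every such ratio, and 36.9% of the 7434 were then higher in the tetrasporophyte, beside 50.3% as deposited. Their median log2 ratio of female to tetrasporophyte was 0.54, beside 0.71 for the 31 members at least 32-fold below.

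**Figure D4:**
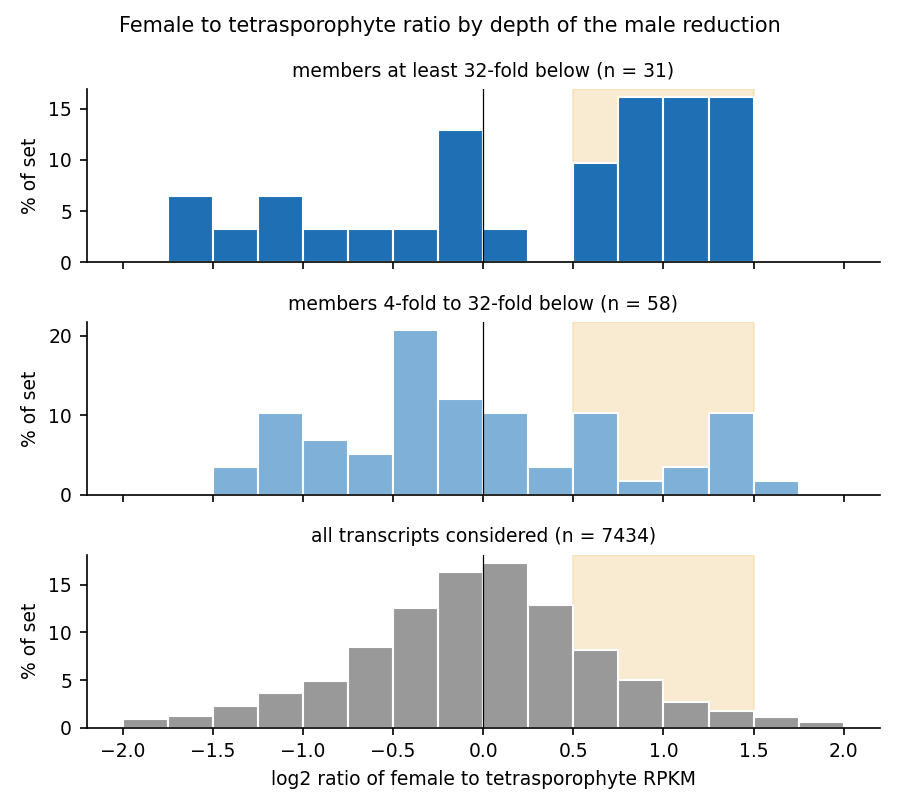
Distribution of the log2 ratio of female to tetrasporophyte RPKM, in percent of each set, for the 31 members at least 32-fold below in the male, the other 58 members and the 7434 transcripts considered. The shaded band from 0.5 to 1.5 holds 58.1% of the first set, 25.9% of the second and 17.7% of all.

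The members with the most unequal levels in the female and the tetrasporophyte lay on both sides. ISGT_2934 stood highest toward the female, with 21.39 RPKM in male, 257 RPKM in female and 89.81 RPKM in tetrasporophyte thalli, which puts the female above the tetrasporophyte by 1.52 on the log2 scale. ISGT_887 followed with 0.85 RPKM in male, 116 RPKM in female and 42.72 RPKM in tetrasporophyte thalli, a log2 ratio of 1.44. On the other side, ISGT_42121 had 1.34 RPKM in male, 183 RPKM in female and 602 RPKM in tetrasporophyte thalli, a log2 ratio of -1.72. ISGT_41943, described above, followed with -1.62. In all, the female exceeded the tetrasporophyte by 2-fold or more in 19 members (21.3%, beside 6.19% of the 7434). The tetrasporophyte exceeded the female that far in 13 (14.6%, beside 8.03%), and 57 (64.04%, beside 85.8%) were less than 2-fold apart.

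The transcript number, which the rule did not use, was the only other property the files give. The transcripts considered occupied the numbers up to 18890 and those from 38912 on, with none between. Members were 58 of 5475 (1.06%) before this gap and 31 of 1959 (1.58%) after it. In blocks of 1000 numbers with at least 50 transcripts considered, the highest share was 4.03%, in the block from 42000 to 42999, where 16 of 397 were members. Outside this block members were 1.04% of 7037 transcripts. The block was picked for its share, so a lower share outside it follows from the choice. The next highest share, 3.77% from 12000 to 12999, rested on 2 of 53. In blocks of 5000 the highest was 3.03% from 15000 to 19999, on 2 of 66. Transcripts that exceeded both others in the male by at least 4-fold were also more frequent from 42000 to 42999. They were 18 of 397 (4.53%) in that block, beside 1.26% of all 7434. The median of the lower value was 22.1 RPKM in the block and 21.6 RPKM over all 7434. The 16 members there had medians of 2.59 RPKM in male, 83.99 RPKM in female and 108 RPKM in tetrasporophyte thalli, and 6 of them were at least 32-fold below.

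The most reduced members differed in their female to tetrasporophyte ratio between these ranges of numbers. Below number 4000 there were 11 members at least 32-fold below, numbered from 887 to 3277. All 11 had the female above the tetrasporophyte, by 0.80 to 1.44 on the log2 scale with a median of 1.15, while the 3034 transcripts considered in that range had a median of 0.02. These 11 ran from 0.32 to 2.60 RPKM in the male, from 56.37 to 254 RPKM in the female and from 22.30 to 136 RPKM in the tetrasporophyte. Their smaller fold ran from 48.3 to 114. Over all numbers before the gap, 15 of the 19 members at least 32-fold below were higher in the female, and in 0 did the tetrasporophyte exceed the female by 2-fold or more. After the gap, 8 of 12 such members were higher in the tetrasporophyte. Of these, 5 were at least 2-fold higher there, numbered between 41943 and 42723 and 58.6-fold to 267-fold below. Among the same 8, ISGT_40757 and ISGT_41930 had log2 ratios of female to tetrasporophyte of only -0.19 and -0.10. Median-of-ratios scaling puts the female higher in both. The 1959 transcripts considered after the gap had a median of -0.06. The ranges were set after these values were seen.

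**Figure D5:**
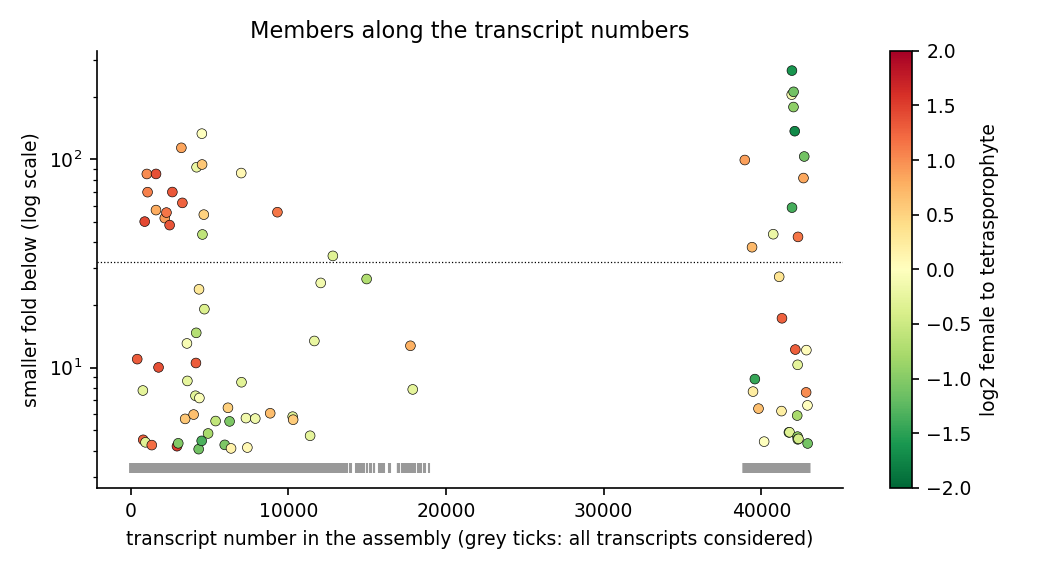
Smaller fold below (log scale) of each member against its transcript number, coloured by the log2 ratio of female to tetrasporophyte; the dotted line marks 32-fold and the grey ticks the 7434 transcripts considered. In the values as deposited, the 11 most reduced members below number 4000 all have the female higher, and 8 of 12 after the gap in the numbers have the tetrasporophyte higher.

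A number next to a member was rare among members and other transcripts alike. No member had the number next to another, and 1.47% of the other transcripts considered had the number next to a member. Among 89 members, 0 lies near that share. The closest pair of members, ISGT_1603 and ISGT_1605, stood at 0.72 and 0.46 RPKM in male thalli, 71.67 and 103 RPKM in female thalli, and 41.10 and 39.16 RPKM in tetrasporophytes. The transcript between them, ISGT_1604, stood at 122 RPKM in male, 127 RPKM in female and 90.93 RPKM in tetrasporophyte thalli. This pair was named after its values were seen. The next closest members were 6 numbers apart. Transcripts numbered next to a member, with at least 1 RPKM in the male and the female, had a median log2 ratio of male to female of -0.11 (156 transcripts), beside 0.06 over all 14817 such transcripts.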

How the data were processed

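Total RNA was isolated with TRI Reagent and sequenced on standard Illumina libraries, 1 for each of the life stages, per the labels' protocols. The deposited values are RPKM per assembled transcript, per the file headers. How reads were assembled, aligned and counted is not given in the sources used here. RPKM is relative to the mapped reads of a library, so a few very abundant transcripts in one library lower all others there.

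The 3 listings were joined on the transcript number, and the rule was applied to the RPKM as deposited, with no pseudocount and no further scaling. Log2 ratios are of RPKM. With 1 library per stage no test was made. Relative depth was read from the steps of values between 0.3 and 3 RPKM. The code of the rule was checked on simulated data with little noise. The planted reductions lay away from the 4-fold limit, so behaviour near the limits was not tested. Alternatives were other limits, a pseudocount of 0.1 or 1 RPKM, median-of-ratios scaling and scaling to equal sums. Named transcripts were the members furthest below both, the most abundant, those with extreme female to tetrasporophyte ratios, the highest in the male and the transcripts nearest the limits. Members and lists were chosen with earlier results of these data known. Python 3.11.15, numpy 2.4.6, pandas 2.3.3, scipy 1.17.1 and matplotlib 3.10.9 were used.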

Additional observations from a re-analysis of the deposited data

How the results depend on the processing

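Without replicates, no result could be set against the spread between cultures, and counting error is unknown. No paired analysis was possible because each stage has 1 library and no test was made. Of 58 values under alternatives, 30 stayed near the value reported and 28 moved. A count was taken as near within 1.5 times, the share of members within its binomial interval, and a median only if the same to 2 decimals. The number of members was 362 at 2-fold, 50 at 8-fold, and 57 with the female and tetrasporophyte under 2-fold apart. It was 118 with median-of-ratios scaling, of which 87 were among the 89, and 105 with equal sums, of which 88 were. Members as a share of the transcripts considered were 4.87% at 2-fold, 0.673% at 8-fold, 1.77% with a minimum of 20 RPKM and 1.54% with median-of-ratios scaling. Transcripts higher in the male by the fold in use numbered 162 with a minimum of 5 RPKM, 38 with 20 RPKM, 271 at 2-fold and 34 at 8-fold.

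With median-of-ratios scaling every log2 ratio of male to female moved by -0.28 and every one of male to tetrasporophyte by -0.07, and equal sums by -0.15 and -0.08. Over the members the median log2 ratio, male to female, was -4.03 with median-of-ratios scaling, -3.90 with equal sums, -3.59 with a pseudocount of 0.1 and -3.33 with a pseudocount of 1. That of male to tetrasporophyte was -3.67, -3.68, -3.52 and -3.20 in the same order. Among members at least 32-fold below, the female stood above the tetrasporophyte by 0.5 to 1.5 in 14 (45.2%, beside 26.5% of the transcripts considered) with median-of-ratios scaling and in 17 (54.8%, beside 20.8%) with equal sums. At 64-fold, 8 of 17 did so. The number of members near another was 2 (2.25%, beside 2.75% of other transcripts) within 2 and 2 (2.25%, beside 6.34%) within 5 numbers. For neighbours of members the median log2 ratio, male to female, was -0.11 within 1, 0.025 within 2 and -0.013 within 5 numbers, a change of sign near 0. The number of members near a transcript low in the female was 5 (5.62%, beside 6.66%) within 2 and 13 (14.6%, beside 15.3%) within 5 numbers.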

Other observations

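The most reduced member, ISGT_41943, is followed in number by a transcript with the opposite pattern. ISGT_41944 stood at 691 RPKM in male, 0.43 RPKM in female and 294 RPKM in tetrasporophyte thalli, beside 1.20 RPKM in male, 320 RPKM in female and 986 RPKM in tetrasporophyte thalli for ISGT_41943. Each was thus near absent from 1 sex and abundant in the tetrasporophyte. The pair was noticed after the values were seen. Such neighbours were not more frequent beside members than elsewhere: 3 of 89 members (3.37%) had the number next to a transcript with at least 10 RPKM in the male and tetrasporophyte and at least 4-fold lower in the female, as did 244 of 7345 other transcripts considered (3.32%). The other members with such a neighbour were ISGT_42723, 103-fold below, and ISGT_42299, 4.67-fold below. ISGT_42722, beside ISGT_42723, stood at 29.48 RPKM in male, 3.36 RPKM in female and 13.86 RPKM in tetrasporophyte thalli. ISGT_42300, beside ISGT_42299, stood at 210 RPKM in male, 2.46 RPKM in female and 31.80 RPKM in tetrasporophyte thalli. All 3 of these members are numbered above 41000, and nothing in the files ties neighbouring numbers to a shared gene or locus.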
